A study of Mus musculus with 8 samples.

Results

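Quinone, carbonyl and aldo-keto reductases were followed in the kidneys of NEKO mice, which lack Keap1, and of control mice. The set is a fixed list of 10 genes: the quinone reductases Nqo1 and Nqo2, the carbonyl reductases Cbr1 and Cbr3, the aldo-keto reductases Akr1b8, Akr1b7, Akr1a1 and Akr1c21, the epoxide hydrolase Ephx1 and the enone reductase Ptgr1. Of these, 9 had a probe that could be named through its transcript accession, out of 18217 genes named on the array, and all 9 entered the test, out of 13570 named genes tested. Cbr1 had no probe named in this way and was not analysed here. At 8 weeks of age, total kidney RNA was taken from 8 mice and each sample was hybridised to its own Agilent 1-colour array. The 4 NEKO mice (replicates 2 and 3, females; 5 and 6, males) carried Keap1-/-::Nrf2Flox/Flox::K5-Cre. The 4 control mice were all Keap1+/-::Nrf2Flox/Flox; replicate 8 (female) and replicates 4 and 7 (males) carried K5-Cre as well, and replicate 1 (female) did not. All 8 mice therefore carried the floxed Nrf2 alleles, 7 carried K5-Cre, no mouse had both Keap1 alleles intact, and the strain background was a mixture of 129Sv/J and C57BL/6J. K5-Cre is a recombinase under the keratin 5 promoter, and was used to remove Nrf2 from squamous epithelium, such as that of the oesophagus. The Krt5 transcript itself was well above background on all 8 kidney arrays, at log2 levels of -2.85 to -1.20 in control mice and -1.03 to 0.55 in NEKO mice. Slide 1 held all females and slide 2 all males, which leaves sex and slide inseparable, and on both slides the control mice had the first 2 positions and the NEKO mice the last 2, so position and genotype cannot be told apart either.

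Keap1 is the adaptor that marks the transcription factor Nrf2 for degradation, and in its absence Nrf2 accumulates and activates genes through the antioxidant response element. Among the best known of these genes are enzymes that spend NADPH or NADH to reduce reactive carbonyl groups and quinones. NQO1 reduces quinones by a transfer of electron pairs and so avoids the semiquinone radical, carbonyl and aldo-keto reductases turn aldehydes and ketones into alcohols, PTGR1 reduces the double bond of enones, and EPHX1 adds water to epoxides. In the kidney the proximal tubule carries much of this detoxification, together with the uptake and excretion of xenobiotics.

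Because several members were higher together in NEKO mice, their proximal promoters were inspected. The windows are those of RefSeq on GRCm38.p6, from 250 bases before to 50 bases after the annotated start; the 10 members have 11 such windows, with 2 for Nqo2. The core of the antioxidant response element, TGACNNNGC, was searched on both strands and occurred in 0 of the 11 windows, against 12.4% of the 32851 windows of all genes. The related TGANTCA core, which overlaps the first motif where a TGACTCA is followed by GC, occurred in 1 window, the second one of Nqo2, against 7.81% of all windows. The GC box GGGCGG occurred in 6 windows, those of Nqo1, Cbr3, Akr1b8, Ephx1, Ptgr1 and the first one of Nqo2, against 35.7% of all windows. Such matches describe letters and not binding sites, and elements outside the windows were not searched. The 150 bases before the start are shown, with the bases of every GC box, on either strand, in capitals. Akr1b7 is in the chromosomal cluster of Akr1b8 and, like it, was higher in NEKO males, but was lower in NEKO females. Stretches are shown for it and for the 3 members with the largest genotype differences. Each is written 5′ to 3′ on the strand of its gene: Nqo1 at chr8:107403206-107403355 (minus strand), Cbr3 at chr16:93683069-93683218 (plus strand), Akr1b8 at chr6:34353996-34354145 (plus strand) and Akr1b7 at chr6:34412212-34412361 (plus strand).
Nqo1: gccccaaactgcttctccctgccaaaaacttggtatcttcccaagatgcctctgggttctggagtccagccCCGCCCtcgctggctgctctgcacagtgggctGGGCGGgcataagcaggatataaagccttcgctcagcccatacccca
Cbr3: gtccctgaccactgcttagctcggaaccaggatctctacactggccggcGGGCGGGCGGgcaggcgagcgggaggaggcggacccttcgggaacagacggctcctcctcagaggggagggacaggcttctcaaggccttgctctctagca
Akr1b8: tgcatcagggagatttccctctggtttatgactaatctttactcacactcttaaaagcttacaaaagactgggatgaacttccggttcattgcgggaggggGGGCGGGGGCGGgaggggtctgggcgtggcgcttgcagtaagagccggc
Akr1b7: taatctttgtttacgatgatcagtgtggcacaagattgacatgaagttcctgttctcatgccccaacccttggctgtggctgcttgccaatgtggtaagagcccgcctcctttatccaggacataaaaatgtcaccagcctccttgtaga
Nqo1, Cbr3 and Akr1b8 each hold 2 GC boxes in this stretch, and Akr1b7 holds none. The first window of Nqo2, whose genotype difference was -0.07, holds GC boxes as well.

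A level is given here as the log2 processed signal of a probe minus the 75th percentile on its array, so that a difference of 1 is a doubling. Levels of different genes come from different probes and are not compared with one another. Keap1 itself, the gene that was deleted, had a level of 1.84 ± 0.07 (SD, n = 4) in the controls against 0.20 ± 0.17 (SD, n = 4) in the NEKO group, a difference of -1.63, with no overlap. All 9 measured members were well above background on all 8 arrays and none was saturated. In limma, with sex as a term and Benjamini-Hochberg adjustment over everything tested, 0 of the 9 members were called higher at an adjusted p under 0.05 and 0 lower, against 0.111% of named genes called higher and 0.169% called lower. At an unadjusted p under 0.05 limma gave 6 members higher and 0 lower, against 8.14% and 10.2% of named genes. The unpaired comparison with unequal variances of the study's methods, without adjustment, gave 4 higher (Nqo1, Cbr3, Akr1b8 and Ephx1) and 0 lower, against 5.48% and 6.5%. In 4 members, Nqo1, Cbr3, Akr1b8 and Ephx1, all NEKO mice were higher than all control mice, which held for 4.49% of named genes. No member had all NEKO mice lower than all control mice, which held for 5.09%. The median difference of the 9 members was 0.98, beside -0.02 for all named genes. As the tissue is whole kidney, more RNA per cell cannot be told apart from more cells of a type that makes it.

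The genotype differences were not alike in the sexes, and a model with an interaction of genotype and sex was therefore used to read the genotype effect in each sex. These contrasts were chosen after the data were seen, and each compares 2 mice with 2, with a spread pooled over the 4 combinations of sex and genotype. In males, 5 members rose (Nqo1, Cbr3, Akr1b8, Ephx1 and Ptgr1), against 3.23% of named genes called higher there by limma. In females, 1 member rose (Cbr3), against 0.0516%. With the effect averaged over the sexes in this model, the same 5 members as in males were called higher, against 1.52% of named genes. The calls in males were reduced to 3 without control replicate 4, where Ephx1 and Ptgr1 lost theirs, and to 3 without NEKO replicate 6, where Nqo1 and Ptgr1 lost theirs. Ptgr1 also lost its call without NEKO replicate 5 or control replicate 7, and so whichever male was left out. The call of Cbr3 in females was lost without control replicate 1, NEKO replicate 3 or control replicate 8.

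**Figure D1:**
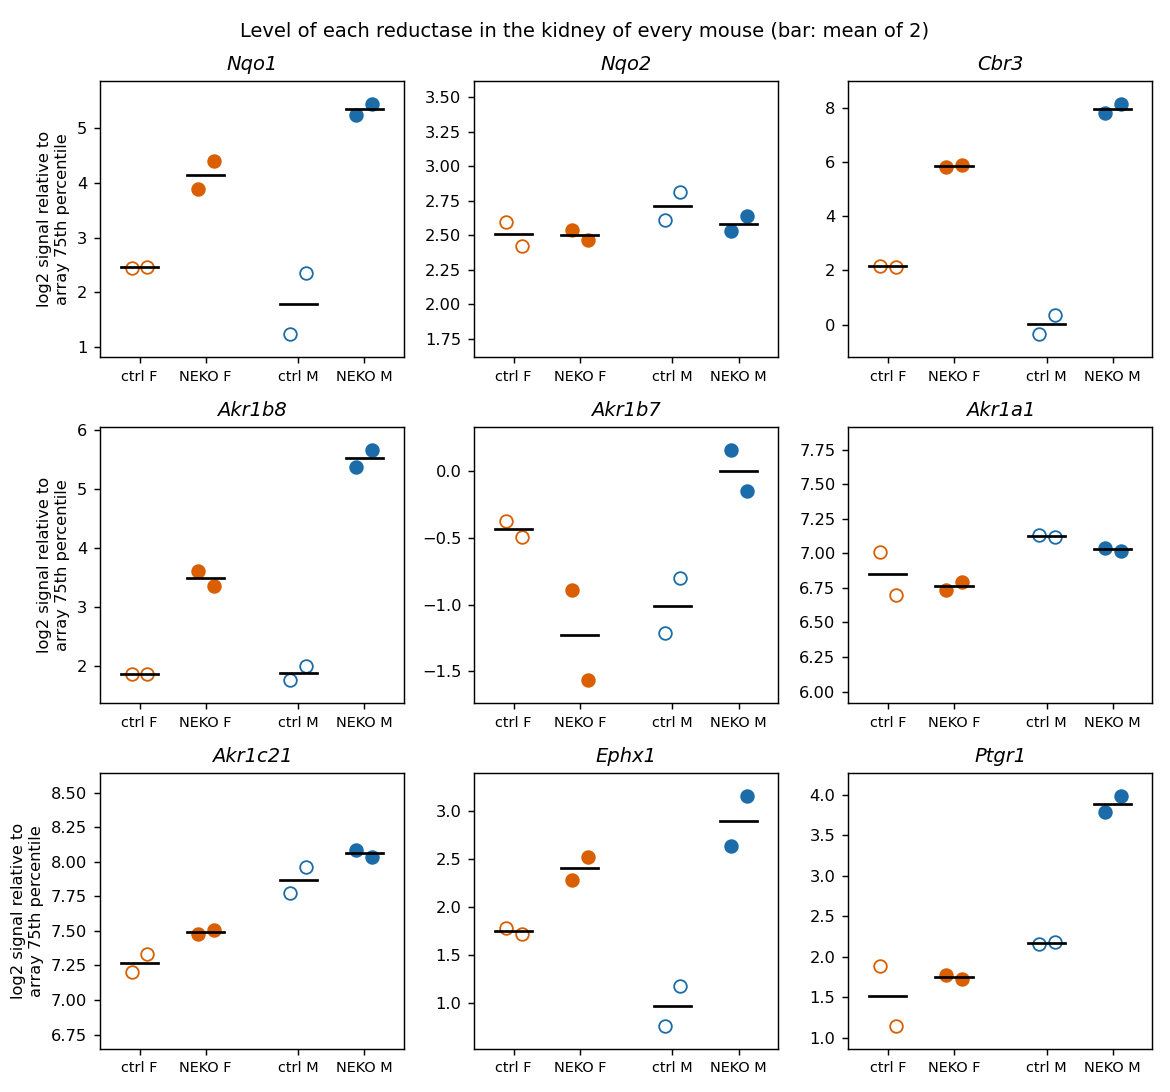
Level of the 9 measured members in every mouse, as log2 signal minus the 75th percentile on its array, with its own vertical range in each panel; open circles are control (ctrl) and filled circles NEKO mice, females (F) orange and males (M) blue, and a bar is the mean of 2 mice. Nqo1, Cbr3, Akr1b8 and Ephx1 are separated by genotype in both sexes, Akr1c21 by a narrow margin in each sex, Ptgr1 in males, and Akr1b7 in opposite directions in the 2 sexes. Akr1a1 is separated by a narrow margin in males only, with the NEKO mice lower. The share of all genes separated within a sex, 2 mice against 2, was not counted.

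Nqo1 (NM_008706) encodes the NAD(P)H quinone dehydrogenase that is the customary reporter gene of Nrf2 activity. Its level was 2.45 and 2.46 in the control females and 1.24 and 2.35 in the control males, replicate 4 being the low one. The NEKO values were 3.89 and 4.41 in the females and 5.25 and 5.45 in the males. The lowest NEKO mouse thus lay above the highest control mouse, and the NEKO males lay above the NEKO females. The difference was 2.62 (standard error 0.43, 95% interval 1.62 to 3.63), or 6.16-fold, with an adjusted p of 0.065 in limma and an exact two-sided permutation p of 0.0286, the smallest that 4 mice against 4 allow. This permutation, here and for the other members, exchanged mice without regard to sex or slide. A permutation kept within each sex, which allows fewer arrangements and a larger smallest p, was not run. Within the sexes Nqo1 was 3.23-fold higher in NEKO females (adjusted p = 0.37 in limma) and rose 11.7-fold in males (adjusted p = 0.0086 in limma). Without control replicate 4 the difference over both sexes was 2.21.

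Nqo2 (NM_020282), the sister enzyme that uses dihydronicotinamide riboside as electron donor, stayed between 2.42 and 2.81 in all 4 control mice. In NEKO mice it lay between 2.47 and 2.64, inside the control range. The difference was -0.07 (95% interval -0.27 to 0.14, adjusted p = 0.70 in limma), and a second, dimmer probe gave 0.13. An increase of more than 0.14 on the brighter probe lay outside the interval, so that the 2 quinone reductases had intervals that did not overlap.

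Cbr3 (NM_173047), a carbonyl reductase of the short-chain dehydrogenase family whose gene lies next to Cbr1 on chromosome 16, had the largest difference of the set. Control females were at 2.17 and 2.14, and control males at -0.36 and 0.36. NEKO females were at 5.80 and 5.90, and NEKO males at 7.80 and 8.14. The order of the sexes was thus inverted: among control mice the males were the lower, and among NEKO mice the higher. The genotype difference over both sexes was 5.83 (standard error 0.82, 95% interval 3.89 to 7.77), or 56.9-fold, with an adjusted p of 0.054 in limma and an exact permutation p of 0.0286. It was the number 2 rise among the 13570 named genes. Cbr3 rose by 3.70 on the log2 scale in females (adjusted p = 0.013 in limma) and by 7.96, or 250-fold, in males (adjusted p = 0.00025 in limma). The male effect was larger than the female effect by 4.27 (95% interval 3.42 to 5.11, adjusted p = 0.058 in limma). The male minus female difference was -2.15 in control mice (adjusted p = 0.087 in limma) and 2.12 in NEKO mice (adjusted p = 0.023 in limma).

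**Figure D2:**
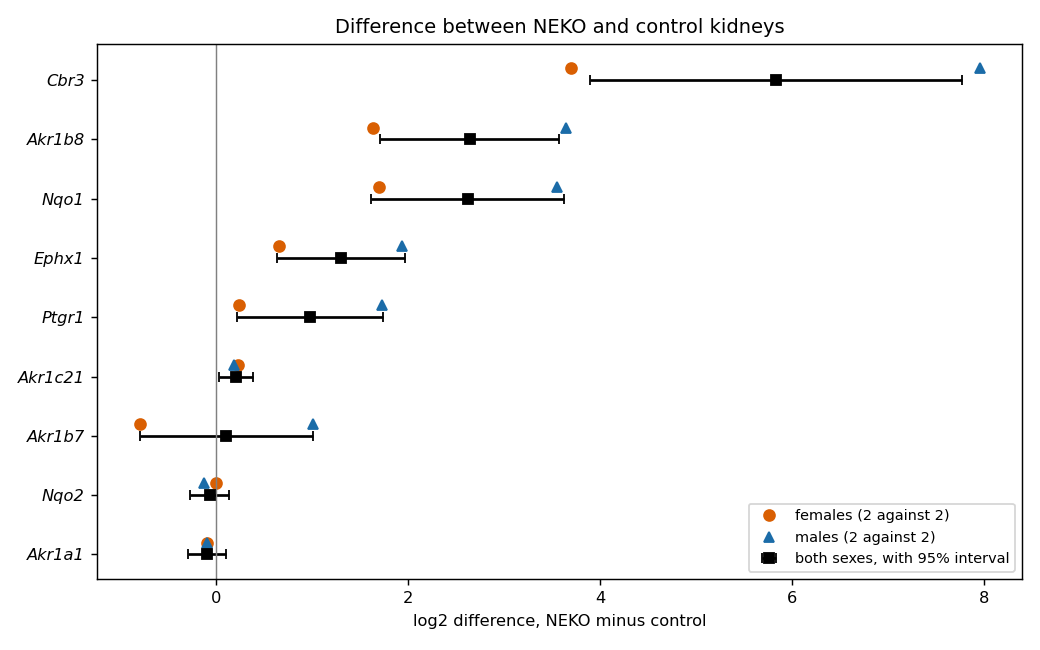
Difference in log2 level, NEKO minus control, for the 9 measured members; squares are the value over both sexes with its 95% interval, circles the females and triangles the males (2 mice against 2 in each sex). Cbr3 stands at 5.83, Akr1b8 and Nqo1 at 2.64 and 2.62, and Nqo2 and Akr1a1 at -0.07 and -0.09, and in 6 members (Nqo1, Cbr3, Akr1b8, Akr1b7, Ephx1 and Ptgr1) the male value lies well to the right of the female one.

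Akr1b8 (NM_008012) encodes an aldose reductase-like enzyme that reduces aliphatic and aromatic aldehydes. It was the steadiest member in control mice, at 1.85 and 1.86 in females and 1.75 and 2.00 in males. Among NEKO mice the values were 3.62 and 3.36 in females and 5.38 and 5.67 in males. No NEKO mouse overlapped with the control mice, and the sexes, close in control mice, were apart in NEKO mice. The difference was 2.64 (standard error 0.39, 95% interval 1.71 to 3.57), or 6.24-fold, with an adjusted p of 0.058 in limma and an exact permutation p of 0.0286. Akr1b8 rose 12.5-fold in males (adjusted p = 0.0012 in limma) and was 1.63 higher on the log2 scale in females (adjusted p = 0.055 in limma). NEKO males exceeded NEKO females by 2.03 (adjusted p = 0.0092 in limma), whereas the male minus female difference in control mice was 0.02 (adjusted p = 0.97 in limma).

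Akr1b7 (NM_009731), best known from the vas deferens and the adrenal cortex, where it acts on aldehydes left by steroid synthesis, lies close to Akr1b8 on chromosome 6. Its level was -0.37 and -0.49 in control females and -1.21 and -0.80 in control males. In NEKO mice it was -0.89 and -1.57 in females and 0.16 and -0.15 in males. Both NEKO females were thus below both control females and both NEKO males above both control males, so that the difference over both sexes was 0.11 (95% interval -0.80 to 1.01, adjusted p = 0.90 in limma). The male effect was larger than the female effect by 1.81 (95% interval 0.92 to 2.70), at an unadjusted p of 0.0024 and an adjusted p of 0.15 in limma. Of 8 adrenal cortex markers, 7 had a probe, and their summed level, on the linear scale, was 0.72 to 0.85 in control mice and 0.66 to 0.83 in NEKO mice. The steroid hydroxylases Cyp11b2 and Cyp21a1 were not well above background on any array. Cyp11a1 was so on 1 array only, and its highest level was -4.26, in NEKO replicate 6.

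In chromosomal order the genes of this region are Akr1b3, Akr1b8, Akr1b10 and Akr1b7, with no other protein-coding gene of the RefSeq table between them. Akr1b3, the aldose reductase that makes sorbitol, differed by 0.18 (adjusted p = 0.83 in limma), and Akr1b10, which lies between Akr1b8 and Akr1b7, differed by -0.11 (adjusted p = 0.52 in limma). Of the 4 neighbours Akr1b8 was thus alone in having all NEKO mice above all control mice. The sequences of the probes were not used here, and signal shared between close paralogues was not tested.

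**Figure D3:**
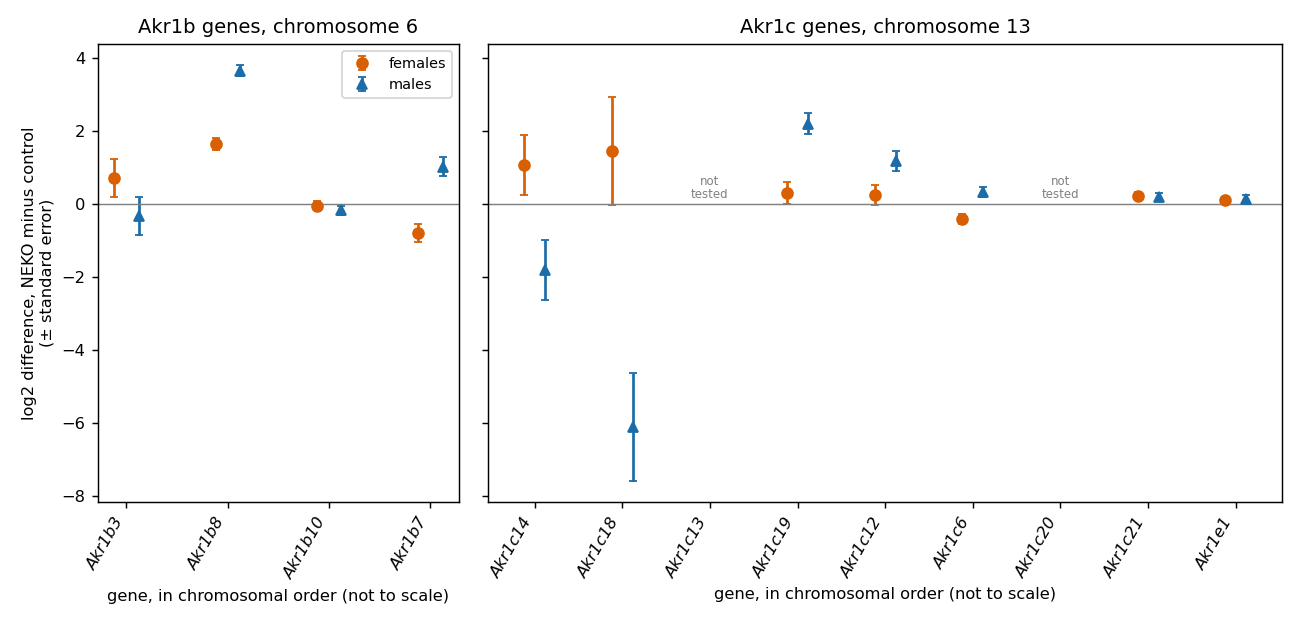
Difference in log2 level, NEKO minus control, in females (circles) and males (triangles), with its standard error from the model with an interaction, for the Akr1b genes of chromosome 6 and the Akr1c genes and Akr1e1 of chromosome 13, in chromosomal order and not to scale. Akr1b8 stands apart from its neighbours, at 1.63 in females and 3.65 in males, and Akr1c18 differs most between the sexes, at 1.44 and -6.10.

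Akr1a1 (NM_021473), aldehyde reductase, makes gulonate from glucuronate in the ascorbate pathway of the mouse and is abundant in proximal tubules. It was between 6.70 and 7.14 in control mice and between 6.73 and 7.04 in NEKO mice. The groups overlapped, and the difference was -0.09 (95% interval -0.29 to 0.11, adjusted p = 0.57 in limma). Akr1c21 (NM_029901), a hydroxysteroid dehydrogenase of the mouse kidney, was at 7.21 and 7.33 in control females and 7.78 and 7.96 in control males. NEKO mice stood at 7.48 and 7.51 in females and 8.09 and 8.03 in males. Males lay above females in both genotypes, by 0.60 in control and 0.57 in NEKO mice (adjusted p = 0.14 and 0.072 in limma). The genotype difference was 0.21 (95% interval 0.03 to 0.38), or 1.15-fold, with an adjusted p of 0.22 in limma. The NEKO mice lay above the control mice within each sex, and the groups overlapped over both sexes.

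Ephx1 (NM_010145), microsomal epoxide hydrolase, was at 1.78 and 1.72 in control females and 0.76 and 1.17 in control males. Among NEKO mice it was 2.29 and 2.52 in females and 2.64 and 3.17 in males. No NEKO mouse was as low as any control mouse, and the difference was 1.30 (standard error 0.28, 95% interval 0.63 to 1.97), or 2.46-fold, with an adjusted p of 0.11 in limma and an exact permutation p of 0.0286. A second probe gave 1.41. Ephx1 rose 3.84-fold in males (adjusted p = 0.011 in limma), and in females it was 1.58-fold higher (adjusted p = 0.50 in limma).

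Ptgr1 (NM_025968), which inactivates leukotriene B4 and lipid enones such as hydroxynonenal, was at 1.88 and 1.15 in control females and 2.15 and 2.19 in control males. In NEKO females it was 1.77 and 1.72, within the range of the control females, and in NEKO males it was 3.80 and 3.99, above every other mouse. The difference over both sexes was 0.98 (95% interval 0.22 to 1.74), or 1.97-fold, with an adjusted p of 0.20 in limma and an exact permutation p of 0.29. Ptgr1 rose 3.31-fold in males (adjusted p = 0.018 in limma), while the difference in females was 0.23 (adjusted p = 0.77 in limma). NEKO males exceeded NEKO females by 2.15 (adjusted p = 0.020 in limma).

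The difference between the sexes was tested itself as the interaction. At an unadjusted p under 0.05, 6 of the 9 members passed, against 11.1% of named genes, and in all 6 (Nqo1, Cbr3, Akr1b8, Akr1b7, Ephx1 and Ptgr1) the effect was higher in males. None passed after adjustment over everything tested, with adjusted p-values from 0.058 for Cbr3 to 0.26 for Nqo1 in limma. The interaction of Cbr3 passed with normexp background correction (adjusted p = 0.018 in limma), with trend and robust (0.037), with detection on all 8 arrays (0.039) and without control replicate 7 (0.043). That of Akr1b8 passed with normexp (adjusted p = 0.045 in limma) and with trend and robust (0.041). Nqo1 exceeded its female effect in males by 1.86 (95% interval 0.60 to 3.11), Akr1b8 by 2.01 (1.47 to 2.56), Ephx1 by 1.28 (0.53 to 2.04) and Ptgr1 by 1.49 (0.69 to 2.30). Among NEKO mice, 3 members, Cbr3, Akr1b8 and Ptgr1, were called higher in males than in females, against 0.847% of named genes. In control mice the male minus female difference was -2.15 for Cbr3, -0.78 for Ephx1 and -0.66 for Nqo1 (adjusted p = 0.087, 0.21 and 0.44 in limma). Without control replicate 4 that of Nqo1 was -0.11, and those of Cbr3 and Ephx1 were -1.79 and -0.58.

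Summed levels of some cell type markers also differed with sex and genotype. The 5 principal cell markers were well above background on all 8 arrays. On the linear scale they summed to 45.9 in control and 42.6 in NEKO females, and 42.8 and 37.7 in the males. These sums overlapped between genotypes in both sexes. All 10 proximal tubule markers were well above background on all 8 arrays. Their summed linear level was close between genotypes, with means of 818 in control and 870 in NEKO females and 1009 and 1003 in the males. Single markers were not all alike. Slc22a8 was higher in all NEKO mice (3.96 to 4.46) than in all control mice (2.49 to 3.78). Slc5a2 was lower in all NEKO mice (4.90 to 5.36) than in all control mice (5.46 to 5.68). The summed level of the 5 urothelial markers, all well above background on all 8 arrays, was 2.50 in control and 2.56 in NEKO females, and 1.45 and 5.71 in the males. Upk1a, 1 of the 5, was lower in all NEKO than in all control mice. For neutrophil markers (4 of 5 with a probe, Cxcr2 not well above background on any array) it was 0.35 and 0.43 in females, and 0.48 and 4.13 in the males. The last of these means came from 6.68 in NEKO replicate 5 and 1.59 in NEKO replicate 6, and S100a9 was the only one of these markers well above background on all 8 arrays. The macrophage markers (6 of 7 with a probe, all 6 well above background on all arrays) summed to 4.82 and 4.44 in females and 4.27 and 5.20 in the males. Here the NEKO male mean came from 3.65 in replicate 5 and 6.75 in replicate 6, and single markers went different ways. In males Lyz2 was at -3.61 and -4.28 in control and -1.79 and -0.75 in NEKO mice. Csf1r was at 0.96 and 0.95 in control and 0.20 and 0.37 in NEKO males. The intercalated cell markers, 5 of 5 well above background on all arrays, summed to 43.4 and 22.8 in females and 35.7 and 9.53 in the males. Of these, Slc26a4 and Atp6v1g3 were lower in all NEKO than in all control mice, and Foxi1 overlapped between genotypes in both sexes. Slc4a1 was at 2.34 in NEKO replicate 5, above every control mouse (1.73 to 2.17), and at -0.86 in NEKO replicate 6. The 5 thick ascending limb markers, again all well above background, summed to 400 in control and 376 in NEKO females and to 371 and 233 in the males. Among males, Umod, Egf and Kcnj1 were lower in both NEKO mice, as was Slc12a1 by a narrow margin. Cldn16 overlapped there, at -1.15 and -0.58 in control and -1.01 and -1.09 in NEKO males. The liver markers (4 of 5 with a probe, 3 well above background on all arrays) summed to 1.85 and 2.85 in females and 1.24 and 1.72 in the males. The part of these cells in the levels of the reductases was not tested.

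**Figure D4:**
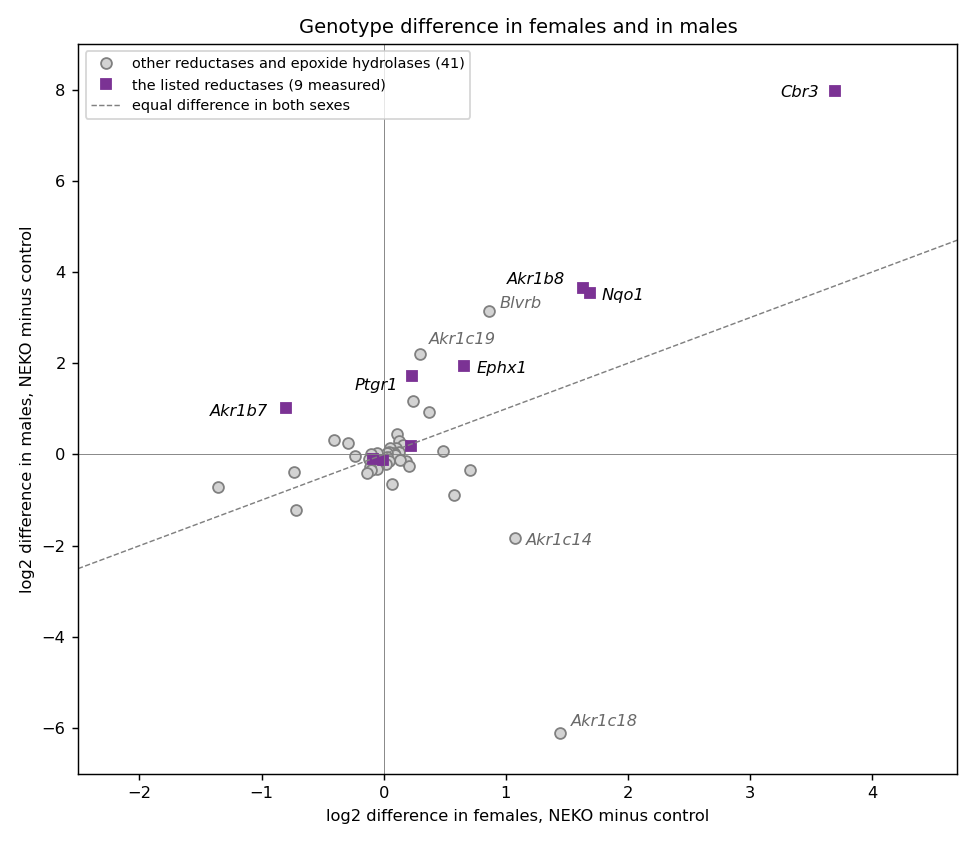
Difference in log2 level, NEKO minus control, in females (horizontal axis) and males (vertical axis) for the 9 measured members (squares) and 41 other reductases and epoxide hydrolases (circles); the dashed line marks equal differences. Cbr3, Akr1b8, Nqo1, Ephx1 and Ptgr1 lie above the line with both values positive, Akr1b7 has a negative female and a positive male value, and most other genes lie close to 0 in both sexes.

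The rest of the enzyme families was read from a list of 47 other reductases and epoxide hydrolases, of which 41 were tested. Akr1c13 and Akr1c20 had no named probe, and the probes of Dhrs7c, Dhrs9, Vat1l and Ephx4 did not pass the filter on dim probes. By limma 0 of the 41 were called higher and 0 lower; at an unadjusted p under 0.05 there were 4 higher and 6 lower, shares close to the 8.14% and 10.2% of all named genes. The median difference was -0.02, as it was for all named genes, and 18 genes had a positive and 23 a negative difference. All NEKO mice were higher than all control mice in 4 genes (Blvrb, Akr1c19, Akr1c12 and Vat1) and lower in 3 (Ephx3, Rdh12 and Mecr). Among all named genes this held for 4.49% and 5.09%.

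Blvrb, a flavin and biliverdin reductase, had the largest difference of these 4. It was at 0.28 and 0.46 in control females, 0.49 and 0.84 in control males, 1.25 and 1.22 in NEKO females and 3.60 and 4.01 in NEKO males. The difference was 2.00 (standard error 0.45, adjusted p = 0.11 in limma), with a rise of 8.82-fold in males (adjusted p = 0.0027 in limma) and a level 1.82-fold higher in females (adjusted p = 0.37 in limma). Akr1c19, an aldo-keto reductase of the Akr1c cluster, was at 3.64 and 3.78 in control females and 1.64 and 2.54 in control males. NEKO mice stood at 4.03 and 3.98 in females and 4.13 and 4.45 in males, so that the sexes, apart in control mice, were close in NEKO mice. Its difference was 1.25 (adjusted p = 0.20 in limma), and it rose 4.57-fold in males (adjusted p = 0.017 in limma). The level in females was 1.23-fold higher (adjusted p = 0.76 in limma). Akr1c12, the neighbour of Akr1c19, differed by 0.70 (adjusted p = 0.22 in limma), and Vat1, singled out after its values were seen, by 0.65 (adjusted p = 0.12 in limma). Akr1c19, Akr1c12 and Akr1b3 each had 2 named probes, and the second probe of each was not examined singly.

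Among the 3 genes that lay below, Ephx3, an epoxide hydrolase of epithelia, differed by -1.04 (adjusted p = 0.21 in limma) and was well above background on 7 of the 8 arrays. Rdh12, a retinal reductase, differed by -0.97 (adjusted p = 0.19 in limma), with control mice between 1.78 and 3.20 and NEKO mice between 1.33 and 1.63. Mecr, the enoyl reductase of mitochondrial fatty acid synthesis, differed by -0.19 (adjusted p = 0.23 in limma).

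Akr1c18, the hydroxysteroid dehydrogenase that breaks down progesterone, was singled out after its values were seen, for the width of its spread. In females it was at -0.32 and 4.00 in control and 4.20 and 2.36 in NEKO mice, so that the groups overlapped and the control females alone spanned most of the range. In males it was at 2.83 and 1.85 in control mice and -2.77 and -4.76 in NEKO mice, a difference of -6.10 (standard error 1.48) or 68.8-fold lower (adjusted p = 0.085 in limma). Akr1c19, from the same cluster, was called higher in males, while the lower level of Akr1c18 did not pass the test.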

How the data were processed

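Total kidney RNA of 8 mice was labelled with Cy3 and hybridised to Agilent 4x44K mouse arrays. The authors deposited the scanner output, in which the processed signal is a background-subtracted intensity per spot, and a matrix of log2 values. Per the file headers it came from Feature Extraction 10.7.3.1 with an annotation on mm9. In the deposited log2 matrix, 100% of the values of 41079 matched probes lay within 0.01 of the log2 processed signal less the 75th percentile on each array, centred on the probe median. The statistics paragraph of the study names an unpaired comparison with unequal variances for all its data; a normalization of the arrays and an adjustment for multiple testing are not given in the sources used here.

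Control spots and spots marked as outliers (73 to 172 of 43379 per array) were left out, spots of a probe were averaged, and each array's 75th percentile over non-control probes was subtracted on the log2 scale. Probes well above background on at least 4 arrays, with a value on at least 6, were kept, and the brightest of them stood for the gene. Each array had 61.7% to 65.7% of its probes well above background; the number of arrays limits the precision. Probes were named through unversioned transcript accessions and RefSeq genes of GRCm38.p6 (26690 of 41174 probes). No coordinate was converted between builds.

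NEKO and control mice were compared in limma 3.58.1 (R 4.3.3; lmFit and eBayes) with sex as a term and Benjamini-Hochberg adjustment over 19593 features, 13570 of them named genes. A second model had an interaction of genotype and sex. An exact two-sided permutation test over mice, without regard to sex or slide, was run for single members. The scripts were tested on simulated data. The members, lists and tests were chosen with earlier results of these data known. Named genes are all members and, from the list of other reductases, any called gene and the 3 largest rises and 3 largest falls among those whose groups do not overlap; Vat1, Akr1b3, Akr1b10 and Akr1c18 fall outside this rule, as do the marker genes and, in a plot, Akr1c14 and other genes of the clusters. Alternatives were a normexp background correction (offset 50, from median and local background signals), quantile normalization, scaling to the median, filters on dim probes, the mean over a gene's kept probes, a model without sex, slide as a block term, trended robust eBayes, array weights, the unpaired comparison with unequal variances of the study's methods, a stricter threshold, the deposited matrix and leaving out each mouse.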

Additional observations from a re-analysis of the deposited data

Results flagged for a closer look

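Among 18 groups of 4 mice, 2 for each of 9 members, 1 had a mouse far from the rest, where chance gives about 1 in 20. It was control replicate 4 for Nqo1, at 1.24 against 2.35 to 2.46 in the other control mice, a gap of 0.91 of the range of the group, past Dixon's critical value for 4 samples. Without this mouse the difference between NEKO and control mice was 2.21 in place of 2.62, with an adjusted p of 0.12 in limma.

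The genotype effect of Akr1b7 was opposite in the sexes, at -0.80 in females and 1.01 in males, with every mouse following the direction of its sex. Neither effect passed adjustment within its sex (adjusted p = 0.49 in females and 0.097 in males, in limma). All measured members were screened for such a pattern, and its share among all genes was not counted. The effect in males minus that in females was 1.81, at an unadjusted p of 0.0024 and an adjusted p of 0.15 in limma. It stayed positive in each of the fits that left out a mouse, from 1.47 to 2.14.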

How the results depend on the processing

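The study's methods name littermates as controls, but the labels do not give the litter of a mouse, so no paired analysis was possible. The number of members called higher, 0 in limma with sex as a term, was 3 with normexp background correction (Akr1b8, Cbr3 and Nqo1), 2 with trend and robust and 2 with array weights (Akr1b8 and Cbr3 in both), 1 without a sex term (Cbr3), 4 by the methods' comparison without adjustment and 5 when the interaction model was averaged over the sexes, which was added once the data had been seen. Leaving out any mouse gave 0 to 0, and the methods' comparison with Benjamini-Hochberg adjustment gave 0. Of the 13570 named genes, 15 were called higher in limma with sex as a term, 56 with normexp and 34 with trend and robust. With array weights it was 39, without a sex term 9, averaged over the sexes 206, and by the methods' comparison without adjustment 743. The other reductases called higher were 2 (Vat1 and Akr1c12) and those called lower 1 (Mecr) of 41 by the methods' comparison without adjustment, where 5.48% and 6.5% of named genes were called. Averaged over the sexes, 3 of them were higher (Blvrb, Akr1c19 and Vat1), against 1.52% of named genes. Within the females the members called higher were 2 with normexp and 2 with trend and robust, and 0 to 1 when a mouse was left out; within the males they were 3 to 5. Within the females, 5 of all named genes were called higher with normexp and 6 with trend and robust. Where a female or male was left out, the lone mouse of its group was assumed to vary like the others. Small differences turned sign: Nqo2 was 0.033 over the mean of its kept probes and 0.13 on its other probe; Akr1b7 was -0.16 without control replicate 4, -0.14 without NEKO replicate 5 and -0.012 without NEKO replicate 6 (range without 1 mouse, -0.16 to 0.42). The interaction of Akr1a1 turned to 0.023 without NEKO replicate 3, 0.0034 without control replicate 4, 0.0063 without NEKO replicate 6 and 0.15 without control replicate 8, and that of Akr1c21 to 0.029 without control replicate 1 and 0.058 without control replicate 7 (range -0.13 to 0.058). The differences of Nqo1, Cbr3, Akr1b8, Ephx1 and Ptgr1 kept their sign in all alternatives run, with ranges of 2.21 to 2.91, 5.26 to 6.28, 2.38 to 2.89, 1.07 to 1.47 and 0.79 to 1.28. The cause of these changes was not tested.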
